A study of Mus musculus with 6 samples.

Results

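Clade B serpins are intracellular protease inhibitors, and 9 of those known from keratinocytes are described here on arrays of α6-integrin-positive epidermal basal cells. The members are Serpinb2, Serpinb3a, Serpinb5, Serpinb6a, Serpinb7, Serpinb8, Serpinb11, Serpinb12 and Serpinb13. They were chosen by their place in the clade and with the signals of these same arrays already known, so every level and difference of a member below is a description and carries no test. Of the 9, 8 had at least 1 probe set that the platform annotation gives to that gene alone, 13 probe sets in all, among 18193 genes measured. All 8 belong to the 10993 genes kept for the fit, which needed a call of present on both arrays of some group. Serpinb13 is named only.

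Total RNA came from cells of female C57BL/6 mice aged 10 weeks, sorted as α6-integrin-positive and propidium iodide-negative after the dermis had been removed with cold trypsin. The 3 groups held 2 arrays each: ventral skin of virgin mice (virgin ventral), dorsal skin of pregnant mice 16 days post coitum (16 dpc dorsal), and ventral skin at the same stage (16 dpc ventral). The ages in the series design span a range around that of the labels, and the column headers give a slightly later day of gestation. The study compared the groups to find genes tied to the expansion of abdominal epidermis in pregnancy. No allele, transgene or drug was given for any of these groups, and virgin dorsal cells were not analysed here. Nothing in the labels says that replicates came from separate animals. The p-values thus weigh group differences against a spread estimated from these samples only, and that spread may be technical.

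Serpins trap a protease by offering a reactive loop that the protease cuts, after which both proteins are locked together. Clade B members mostly lack a secretion signal and act inside the cell, against proteases that leak from lysosomes or arrive from other cells, and several are abundant in stratified epithelia. In skin they are known from barrier disease: loss of SERPINB7 causes a palmoplantar keratosis, and loss of SERPINB8 a peeling skin condition. Some members inhibit trypsin-like serine proteases, others cysteine cathepsins, and maspin (Serpinb5) is not an inhibitor at all.

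All members but Serpinb6a lie in 1 cluster of chromosome 1 in the RefSeq gene table (GRCm38.p6), in the order Serpinb5, Serpinb12, Serpinb13, Serpinb3a, Serpinb3d, Serpinb3b, Serpinb3c, Serpinb11, Serpinb7, Serpinb2, Serpinb10 and Serpinb8. Serpinb6a closes a second cluster on chromosome 13. The 250 bases upstream of the RefSeq start are shown for Serpinb12, Serpinb3a and Serpinb8, the members with the widest span of group means by the probe set that stands for the gene (for Serpinb8 its other probe set has no such span), and for Serpinb7, whose replicates varied least. They are written 5′ to 3′ on the strand of the gene, with build GRCm38.p6 coordinates, and capitals mark matches on either strand to 1 of 2 motifs, the AP-1 motif with letters TGANTCA or the core promoter box with letters TATAAA.
Serpinb12 (chr1:106934199-106934448, plus strand): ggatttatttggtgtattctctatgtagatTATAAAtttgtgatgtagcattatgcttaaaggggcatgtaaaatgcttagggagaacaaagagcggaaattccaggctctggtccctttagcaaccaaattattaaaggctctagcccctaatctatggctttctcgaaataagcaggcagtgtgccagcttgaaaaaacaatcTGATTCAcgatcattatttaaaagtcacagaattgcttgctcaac
Serpinb3a (chr1:107052304-107052553, minus strand): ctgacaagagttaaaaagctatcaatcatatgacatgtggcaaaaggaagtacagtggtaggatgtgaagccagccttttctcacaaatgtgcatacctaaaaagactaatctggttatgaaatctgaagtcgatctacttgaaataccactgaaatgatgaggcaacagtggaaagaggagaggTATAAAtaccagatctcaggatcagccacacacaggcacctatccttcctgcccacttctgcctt
Serpinb8 (chr1:107589756-107590005, plus strand): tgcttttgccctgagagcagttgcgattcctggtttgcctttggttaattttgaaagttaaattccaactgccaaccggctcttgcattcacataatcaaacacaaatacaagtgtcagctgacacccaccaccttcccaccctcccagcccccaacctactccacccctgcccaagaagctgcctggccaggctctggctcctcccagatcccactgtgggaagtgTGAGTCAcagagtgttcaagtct
Serpinb7 (chr1:107422439-107422688, plus strand): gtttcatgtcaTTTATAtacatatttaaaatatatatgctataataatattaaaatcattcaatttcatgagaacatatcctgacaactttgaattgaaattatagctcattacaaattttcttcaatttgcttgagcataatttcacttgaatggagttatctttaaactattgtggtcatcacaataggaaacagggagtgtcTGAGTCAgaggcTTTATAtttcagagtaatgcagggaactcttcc
The first of 2 RefSeq starts of Serpinb12 has an AP-1 match beginning 45 bases upstream. Serpinb7 has one at the same distance of 45 bases, and that of Serpinb8 begins 23 bases upstream. Serpinb3a has no AP-1 match in this window and a TATAAA beginning 65 bases upstream. Over the 8 members with a probe set, 6 had an AP-1 match upstream of at least 1 of their starts (7 of 11 starts), against 6.75% of 32851 promoters in the RefSeq table. TATAAA was found for 4 of the 8 (6 of 11 starts), against 12.4% of all promoters. The 2 windows of Serpinb2 overlap, so 1 AP-1 match and 1 TATAAA of this gene each count for both of its starts. GGGCGG (GC box) was found for Serpinb5 and Serpinb6a (2 of 11 starts), against 32.7%. TTCNNNGAA (STAT) was found for Serpinb2 and Serpinb6a (2 of 11 starts), against 7.02%. The percentages are per promoter, so the counts of starts are the closer measure. No match of 1 motif overlapped one of another in the sequences printed. The motifs were picked after the values were seen, neighbouring serpins arose by duplication and are not independent, and a match is a run of letters, not a bound site.

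The array gives each probe set a signal intensity in arbitrary units and a detection call. Signals of different probe sets depend on the probes, so levels are compared only between arrays for the same probe set. Of the 13 probe sets of the members, 11 were called present on all 6 arrays. The exceptions were the second probe set of Serpinb12 and the single one of Serpinb3a.

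**Figure D1:**
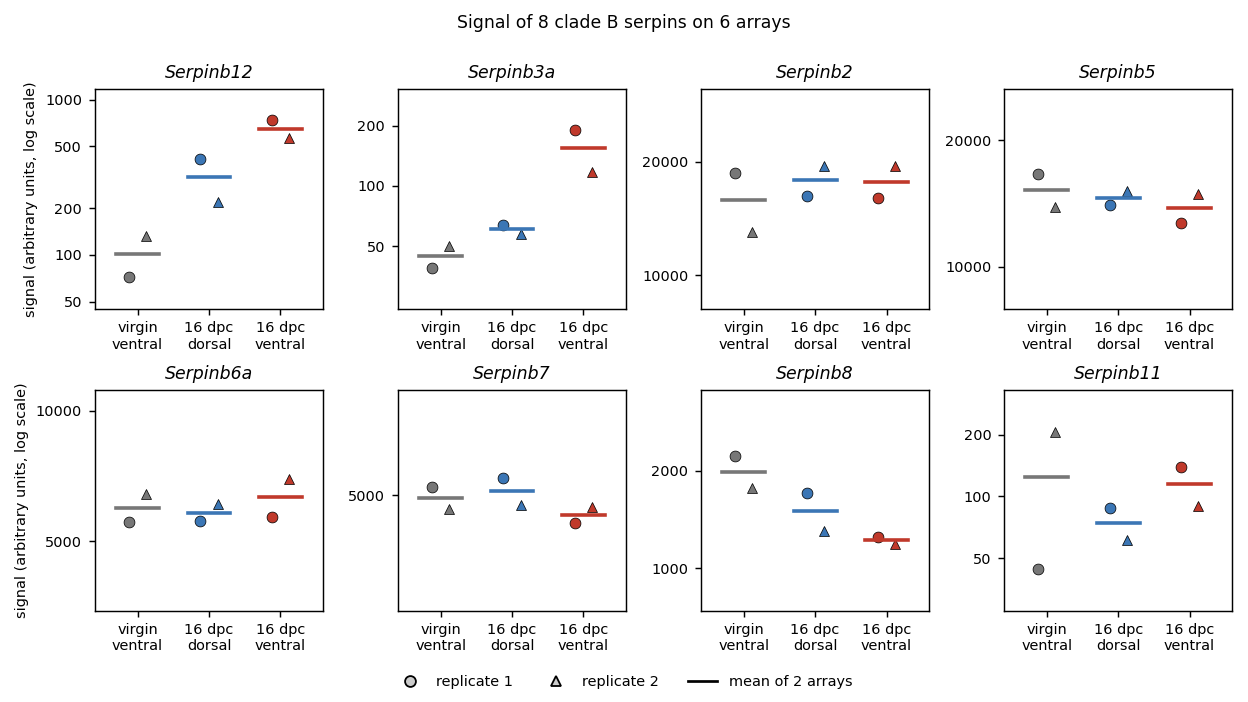
Signal of the 8 measured clade B serpins on each of 6 arrays, for the probe set that stands for the gene (vertical axes: signal in arbitrary units on a log scale, with a range of its own per panel; circles, replicate 1; triangles, replicate 2; lines, group means). Serpinb12 runs from 71.8 and 132 in virgin ventral to 735 and 563 in 16 dpc ventral cells, and Serpinb11 from 44.6 to 205 within the virgin group alone.

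Serpinb12, an inhibitor of trypsin-like serine proteases, differed most between the groups. Its signal was 71.8 and 132 on the virgin ventral arrays, 414 and 219 on the 16 dpc dorsal arrays, and 735 and 563 on the 16 dpc ventral arrays (replicates 1 and 2). The 3 groups did not overlap in any of the 3 comparisons, and both 16 dpc ventral arrays were above every other array. The group means were 102 ± 42.6, 317 ± 138 and 649 ± 122 (SD, n = 2 each). The 16 dpc ventral level was 6.61-fold the virgin level (log2 fold change 2.72, SE 0.39, 95% interval 1.84 to 3.60) and 2.13-fold the dorsal level (log2 1.09, SE 0.39, interval 0.21 to 1.97). The dorsal level at 16 dpc was 3.10-fold the virgin ventral level (log2 1.63, SE 0.39, interval 0.75 to 2.51), a difference of both site and pregnancy that was 2.53 within replicate 1 and 0.73 within replicate 2.

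The size of the difference depended on the replicate. Between arrays of the same number, which share a prefix in the column headers, 16 dpc ventral exceeded virgin ventral by 3.36 in replicate 1 and 2.09 in replicate 2 on the log2 scale. Against 16 dpc dorsal cells the values were 0.83 and 1.36. The second probe set of Serpinb12 read 14 and 28.9 in virgin, 27.2 and 36.4 in dorsal and 76.2 and 50.1 in 16 dpc ventral cells. It was called present only on the latter 2 arrays, so it gives bounds alone, from means of log2 signals. These were at least 3.07-fold over virgin and at least 1.96-fold over dorsal cells, with log2 differences from virgin of 2.44 and 0.80 within replicates 1 and 2. Dorsal and virgin cells cannot be compared by it, since it was called absent on all 4 of those arrays. Both probe sets placed both 16 dpc ventral arrays above the 4 others.

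Serpinb12 was the only one of the 8 kept members past an adjusted p of 0.05 (limma, Benjamini-Hochberg over all kept genes) in 16 dpc ventral over virgin ventral, where 0.200% of all genes passed (22 of 10993). No member passed in 16 dpc ventral over 16 dpc dorsal, where 0.0819% did (9 genes), nor in 16 dpc dorsal over virgin ventral, where 0% did. Since members were selected on these values, nothing is read from that count. The pass was also not stable, being met in 8 of 15 other fits. It was lost without either virgin or either 16 dpc ventral array, without a variance trend, without the detection filter and with the mean of both probe sets, while the log2 fold change ran from 1.62 to 3.16 over 16 alternatives.

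Serpinb11 is related to the trypsin inhibitors, and its human counterpart has lost inhibitory activity. Its signal was 44.6 and 205 in virgin ventral, 87.4 and 61.3 in dorsal and 139.6 and 89.5 in 16 dpc ventral cells. The virgin arrays enclosed all 4 others, and the within-group SD of 0.96 on the log2 scale was exceeded by only 1.7% of kept genes (median 0.21). The 16 dpc ventral level over virgin was accordingly 1.65 in replicate 1 and -1.20 in replicate 2 (log2 0.22, SE 0.65, interval -1.25 to 1.70). Against dorsal cells both numbers gave a higher ventral level, by 0.68 and 0.54, without overlap of the groups. The virgin array where Serpinb11 was 205 also had the highest summed signal of the 6 activated keratinocyte markers, 9546 against 3805 to 6959.5 elsewhere. Krt17 alone read 7660.3 there. Krt17, Krt6b and S100a8 were highest on that array. Krt6a read 1221 there, against 189 on the other virgin array and 1229 and 933 in 16 dpc ventral cells. Only Krt16 was higher on both 16 dpc ventral arrays. The sum of the 4 hair follicle markers was also highest on that array, 1865 against 412 to 1378. The part of these cells in the Serpinb11 signal was not tested.

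Serpinb3a belongs to the mouse counterparts of the squamous cell carcinoma antigens, which inhibit serine and cysteine proteases. Its signal was 39.1 and 50.3 in virgin ventral, 64.1 and 57.9 in 16 dpc dorsal and 191 and 118 in 16 dpc ventral cells. The groups again stood in the order virgin, dorsal, 16 dpc ventral with no overlap, although the first virgin array was called absent. The 16 dpc ventral level was 3.38-fold the virgin level (log2 1.76, SE 0.41, interval 0.83 to 2.68) and 2.46-fold the dorsal level (log2 1.30, SE 0.41, interval 0.37 to 2.22). Virgin and dorsal cells, neighbours in that order, were 0.46 apart (SE 0.41, interval -0.47 to 1.38), which is within the error. The probe set is of a kind that can bind transcripts of near-identical genes (suffix _x_at), and its neighbours Serpinb3b, Serpinb3c and Serpinb3d have no probe set of their own in this annotation, so signal from them cannot be told apart from that of Serpinb3a.

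Serpinb2 (plasminogen activator inhibitor 2) blocks urokinase. Its signal was 18709 and 13039.5 in virgin ventral, 16240.3 and 19522 in dorsal and 16001 and 19435 in 16 dpc ventral cells, and the groups overlapped in all 3 comparisons. The 16 dpc ventral group differed from virgin by 0.18 (SE 0.22, interval -0.31 to 0.66) and from dorsal by -0.01 (SE 0.22, interval -0.50 to 0.47) on the log2 scale. The latter interval corresponds to 0.706-fold to 1.39-fold. Urokinase itself (Plau) read 249 and 163 in virgin, 611 and 519 in dorsal and 641 and 506 in 16 dpc ventral cells. Plau thus had higher signals in both 16 dpc groups. In 16 dpc ventral over virgin cells the log2 difference was 1.50 (SE 0.26). Its adjusted p was 0.0899 (limma, Benjamini-Hochberg), which became 0.026 with the replicate number as a block. In 16 dpc dorsal over virgin cells it was 1.48 (SE 0.26), with an adjusted p of 0.151 (limma), or 0.0574 with the block. Between the 16 dpc sites Plau differed by 0.02 (SE 0.26, adjusted p = 1, limma).

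Serpinb8, an inhibitor of the proprotein convertase furin, gave different pictures with its 2 probe sets. The one of higher signal read 2210.3 and 1760.3 in virgin ventral, 1710.3 and 1297 in dorsal and 1250.2 and 1183 in 16 dpc ventral cells. Each group lay below the one before, without overlap. By this probe set the 16 dpc ventral level was 1.62-fold below the virgin level (log2 -0.70, SE 0.19, interval -1.13 to -0.26), by -0.82 and -0.57 within replicates 1 and 2. The other probe set read 1241 and 869.9 in virgin, 1211 and 854 in dorsal and 1053 and 1118 in 16 dpc ventral cells. All 3 groups overlapped there, and the log2 difference of 16 dpc ventral from virgin was 0.06. Both were called present on all arrays, so no direction is given for Serpinb8. Furin, its target, differed by -0.48 (SE 0.18) with an adjusted p of 0.368 (limma).

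Serpinb6a, an inhibitor of leukocyte proteases such as cathepsin G, read 5526 and 6416 in virgin, 5558 and 6074 in dorsal and 5678 and 6969 in 16 dpc ventral cells. Replicate 2 was above replicate 1 in every group, and the groups overlapped. Its log2 difference was 0.08 (SE 0.17, interval -0.30 to 0.46) over virgin and 0.11 (interval -0.26 to 0.49) over dorsal cells.

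Serpinb7, expressed in the upper epidermis and linked to kallikrein-type proteases, read 5233 and 4636 in virgin, 5485 and 4735 in dorsal and 4308 and 4685 in 16 dpc ventral cells. The 16 dpc ventral arrays lay below both dorsal arrays, with log2 differences of -0.35 in replicate 1 and -0.02 in replicate 2, and overlapped the virgin arrays. The differences were -0.13 (SE 0.15, interval -0.48 to 0.22) from virgin and -0.18 (interval -0.53 to 0.17) from dorsal cells. Its within-group SD of 0.12 was smaller than that of 80.8% of kept genes, the smallest among the members.

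Serpinb5 (maspin), known as a suppressor of mammary tumour growth, had 4 probe sets, all present on all arrays. The one that stands for the gene read 16582 and 13873 in virgin, 14029 and 15160.0 in dorsal and 12718 and 14919 in 16 dpc ventral cells. Its groups overlapped in all 3 comparisons, and 16 dpc ventral differed from virgin by -0.14 (SE 0.17, interval -0.53 to 0.25). The log2 differences of the other probe sets from virgin were -0.21, -0.07 and -0.25, so the 4 gave the same sign. The last of these read 8414 and 8945 in virgin, 8579.6 and 8181 in dorsal and 7071 and 7531 in 16 dpc ventral cells, the 16 dpc ventral arrays being lowest.

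**Figure D2:**
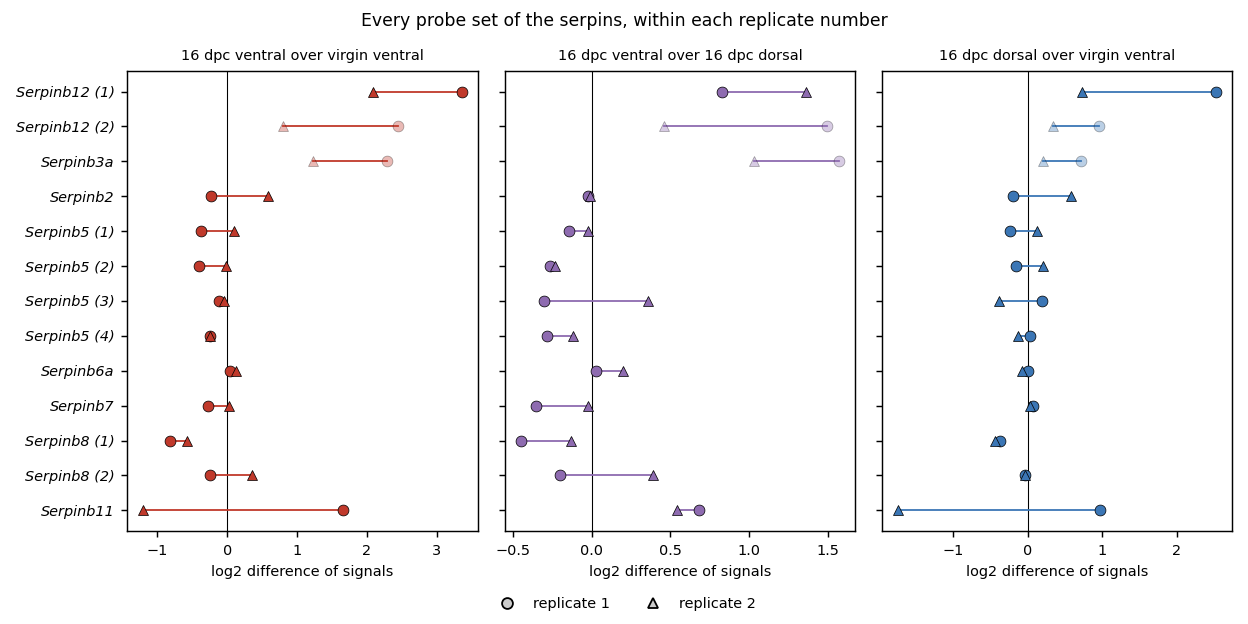
Log2 difference of signals between arrays of the same replicate number, for each of 13 probe sets of the members and each comparison (horizontal axes differ in range between panels; circles, replicate 1; triangles, replicate 2; paler points, probe sets not called present on all 6 arrays). Both Serpinb12 probe sets and Serpinb3a lie to the right of 0 in both replicates, the Serpinb8 probe sets part (means of -0.70 and 0.06 in the left panel), and Serpinb11 spans 0 in the left and right panels.

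The members whose groups did not overlap were counted by the probe set that stands for the gene, which for Serpinb8 is not borne out by the other. In 16 dpc ventral over virgin ventral, 2 were higher (Serpinb12, Serpinb3a), beside 23.8% of all kept genes, and 1 lower (Serpinb8), beside 19.8%. In 16 dpc ventral over 16 dpc dorsal, 3 were higher (Serpinb12, Serpinb3a, Serpinb11), beside 13.1%, and 2 lower (Serpinb7, Serpinb8), beside 19.7%. In 16 dpc dorsal over virgin ventral, 2 were higher (Serpinb12, Serpinb3a), beside 24.3%, and 1 lower (Serpinb8), beside 13.6%. The comparisons share arrays, and with 2 arrays a group such separation is frequent among all genes.

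The members fell into ranges rather than into 1 pattern. The span between the highest and lowest group mean was 2.72 for Serpinb12 and 1.76 for Serpinb3a on the log2 scale, exceeded by 0.4% and 1.5% of kept genes. It was 0.70 for Serpinb8 by the one probe set and 0.61 for Serpinb11. For Serpinb2, Serpinb5, Serpinb6a and Serpinb7 it was 0.11 to 0.19, under the median of 0.30 for all kept genes. Centred on its own mean, Serpinb12 differed from Serpinb3a by a root mean square of 0.58 over the 6 arrays and from the other members by 1.16 to 1.46, while Serpinb5 and Serpinb7 were the closest pair, at 0.11.

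**Figure D3:**
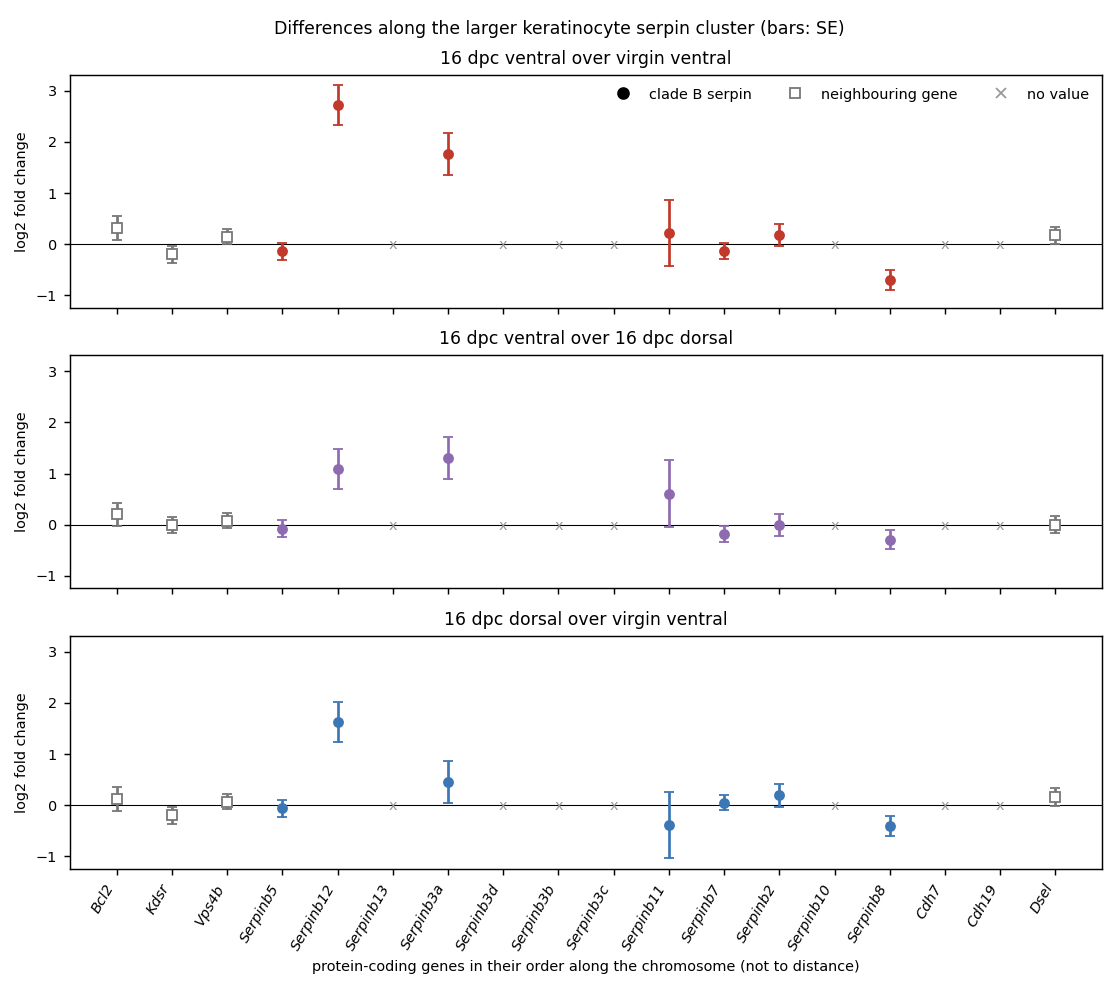
Log2 fold change of genes of the chromosome 1 serpin cluster and of 3 protein-coding neighbours on each side, in gene order and not to distance, in the 3 comparisons (filled circles, clade B serpins; open squares, neighbouring genes; bars, SE; crosses, genes with no value here). Serpinb12 at 2.72 and Serpinb3a at 1.76 stand above the other genes with a value in the top panel, where Serpinb5 lies at -0.14 and Vps4b at 0.15.

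Neighbouring genes of the cluster had like differences in 1 place and unlike ones in others. Serpinb12 and Serpinb3a, with only the unmeasured Serpinb13 between them, differed from virgin cells by 2.72 and 1.76. Serpinb5, next to Serpinb12, differed by -0.14 from virgin cells, and beyond it the trafficking ATPase gene Vps4b by 0.15 (SE 0.15), Kdsr by -0.20 (SE 0.16) and Bcl2 by 0.32 (SE 0.23). On the far side Dsel differed by 0.17 (SE 0.17). Of the 12 genes that flank the clusters on chromosomes 1 and 13, 7 were kept and none passed in any comparison (limma), with a median log2 difference of 0.15 over virgin cells against 0.02 for all genes.

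RefSeq lists 28 protein-coding clade B serpins in mouse, of which 18 had a probe set of their own. Of the 10 that are not members, 4 were kept, 6 were not and 4 of the latter were called present on no array. A probe set shared by Serpinb9h, Serpinb9g, Serpinb9e and Serpinb9f was called absent on all 6. None of the 4 kept genes passed in any of the 3 comparisons (limma, Benjamini-Hochberg).

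Serpinb6c, a neighbour of Serpinb6a, read 5.68 and 49.4 in virgin, 57.3 and 47.1 in dorsal and 99.1 and 78.1 in 16 dpc ventral cells. Its 16 dpc ventral arrays were highest, but the virgin arrays were far apart, and the first of them was called absent. The log2 difference from virgin was 2.39 with an SE of 0.88 (adjusted p = 0.354, limma). Within replicates 1 and 2 it was 4.12 and 0.66, so its size is uncertain. Serpinb1a, the mouse counterpart of the neutrophil elastase inhibitor, differed by 0.57 (SE 0.33, adjusted p = 0.545, limma) from virgin cells. Serpinb6e and Serpinb9, the latter an inhibitor of granzyme B, differed by 0.13 (SE 0.22, adjusted p = 0.863, limma) and -0.40 (SE 0.43, adjusted p = 0.767, limma).

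The proteases and other inhibitors around the serpins did not pass the test either. Over 64 kept genes of the lists of other serpins, proteases, other inhibitors, transcription factors and cluster neighbours, 0 passed in each comparison (limma), while 10, 1 and 5 had an unadjusted p under 0.05. These are 15.6%, 1.6% and 7.8% of the 64, against 11.6%, 5.1% and 7.3% of all kept genes. Blocking on the replicate number let 1 of the 64 (Plau) pass over virgin cells. Of 10 kept cysteine cathepsins and related lysosomal proteases, 4 had a higher and 6 a lower mean in 16 dpc ventral than in virgin cells, with a median log2 difference of -0.06. Among them Ctss, a cathepsin of antigen-presenting cells, read 511 and 361 in virgin, 917 and 882 in dorsal and 843 and 651 in 16 dpc ventral cells (log2 0.79, SE 0.23, adjusted p = 0.249, limma). Ctsc, which activates leukocyte serine proteases, differed by 0.44 (SE 0.19) and the legumain gene Lgmn by -0.55 (SE 0.34).

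Of the 6 kept genes of plasminogen activation, 3 had a higher and 3 a lower mean, with a median of 0.00. The urokinase receptor gene Plaur differed by -0.51 (SE 0.45, adjusted p = 0.713, limma). Of 9 kept membrane-bound serine proteases and convertases, 7 had a lower mean (median -0.22), among them Tmprss4 at -0.59 (SE 0.18) and Tmprss13 at -0.35 (SE 0.17). All 11 leukocyte serine proteases of the list, the targets of several clade B serpins, failed the detection filter.

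All 9 kept inhibitors of other families had a lower mean in 16 dpc ventral than in virgin cells. Their median log2 difference was -0.37 against 0.02 for all genes, and none passed (limma). The sign was not the same within replicates 1 and 2 for Slpi (0.67 and -1.08), Cst6 (0.14 and -2.47) and Timp3 (0.33 and -1.09). Slpi was called present on only 2 of the 6 arrays. Wfdc2, of the whey acidic protein family, read 147 and 221 in virgin, 66.1 and 67.8 in dorsal and 51 and 32.6 in 16 dpc ventral cells (log2 -2.15, SE 0.41, adjusted p = 0.107, limma). It was called present on only 3 of the 6 arrays, so the size of this difference is uncertain. Spink5, the inhibitor of kallikreins lost in Netherton syndrome, differed by -0.52 (SE 0.25) and Spint2, an inhibitor of matriptase, by -0.37 (SE 0.15). The list holds no stefin A gene. Stfa3, named after its values were seen, went the other way, with signals of 1075 and 3568 in virgin, 443 and 1279 in dorsal and 8667 and 15631 in 16 dpc ventral cells (log2 2.57 over virgin, SE 0.60, adjusted p = 0.187, limma). Of 3 kept serpins of other clades, 1 had a higher and 2 a lower mean. Serpina12, Serping1 (the inhibitor of complement C1) and Serpinh1 (a collagen chaperone) differed by -0.67, -0.60 and 0.24.

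Of 16 kept transcription factors of keratinocyte differentiation, 12 had a lower mean in 16 dpc ventral than in virgin cells (median -0.26) and none passed (limma). Zfp750, a regulator of terminal differentiation, differed by -0.66 (SE 0.20, adjusted p = 0.265, limma) and Cebpa by -0.71 (SE 0.27, adjusted p = 0.38, limma). Stat6 and Stat3, the factors downstream of interleukin receptors, differed by -0.17 (SE 0.17) and -0.53 (SE 0.49).

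Markers of cells other than basal ones were also detected. The sorted cells came from whole skin after removal of the dermis, and the sort names no marker against hair follicle cells. Lhx2 and Sox9, factors of the follicle, were present on all 6 arrays. All 8 basal markers, with Itga6 and Krt14, were present on all 6 arrays, and their summed signal was 163330.1 to 235163 with overlapping groups. The 6 spinous and 8 granular and cornified markers were also present on all arrays. The summed granular and cornified signal was 6300.1 and 6955 in virgin, 4885 and 3789 in dorsal and 9865 and 10276 in 16 dpc ventral cells. Tgm3 and Krt2 carried that sum: without them the other 6 summed to 3878 and 4531 in virgin, 3116 and 2618 in dorsal and 2319 and 2988 in 16 dpc ventral cells. Of the 8, 4 had a higher and 4 a lower mean in 16 dpc ventral than in virgin cells, with a median log2 difference of -0.25. Tgm3 rose 2.94-fold over virgin (adjusted p = 0.0317, limma) and 4.91-fold over dorsal cells (adjusted p = 0.0152, limma). Krt2 rose 6.13-fold over dorsal cells (adjusted p = 0.0188, limma), and its level over virgin was 3.57-fold (adjusted p = 0.0517, limma, or 0.026 with the replicate block). Flg and Lor had log2 differences from virgin of -1.43 (SE 0.51) and -0.79 (SE 0.22).

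Markers of Langerhans and other antigen-presenting cells were higher at both 16 dpc sites, as Serpinb12 was. Their summed signal was 3439 and 2103 in virgin, 6161 and 5186 in dorsal and 6823 and 4789 in 16 dpc ventral cells. All 5 had a higher mean in 16 dpc ventral than in virgin cells, with a median log2 difference of 1.14. Csf1r, the receptor these cells need, rose 3.38-fold (adjusted p = 0.0406, limma) and read 399 and 249.7 in virgin, 1114 and 956 in dorsal and 1189.6 and 958 in 16 dpc ventral cells. Between the 16 dpc sites Csf1r differed by 0.05 (SE 0.25), where Serpinb12 differed by 1.09 and Serpinb3a by 1.30. The 4 mammary markers summed to 632 and 1018 in virgin, 296 and 446 in dorsal and 7029 and 869 in 16 dpc ventral cells, so that 16 dpc ventral replicate 1, the array with the highest Serpinb12 and Serpinb3a signals, stood apart. There the sum was nearly all casein: without Csn2 and Csn3, the keratin genes Krt8 and Krt18 summed to 381 and 887 in virgin, 65.5 and 58.5 in dorsal and 198 and 57.5 in 16 dpc ventral cells. For the 3 markers of dendritic epidermal T cells the sum was 253 and 195 in virgin cells. It was 374 and 487 in dorsal and 365 and 336 in 16 dpc ventral cells, higher at 16 dpc. The single genes did not all follow that sum, and Cd3e was called present on no array. Ptprc differed by 0.75 (SE 0.31) in 16 dpc ventral over virgin cells on the log2 scale. Cd3g differed by only 0.12 (SE 0.37) there. It read 117 and 80.9 in virgin, 112 and 188 in dorsal and 111 and 102 in 16 dpc ventral cells. The 5 fibroblast markers summed to 240.0 and 429 in virgin, 143 and 145 in dorsal and 166 and 136 in 16 dpc ventral cells, lower at 16 dpc. Of these, 0 were called present on all arrays and 2 on no array. Much of the difference was Dcn, present on 2 arrays, at 122 and 196 in virgin, 12 and 42.3 in dorsal and 39.1 and 33 in 16 dpc ventral cells. Col3a1 overlapped between the groups, at 37 and 68.4, 31.1 and 47.9, and 47.1 and 22.1. Neutrophil and mast cell markers (6) and endothelial markers (2) were called present on no array. The part of other cells in the serpin signals was not tested, and in bulk RNA fewer cells of a type cannot be told apart from less RNA per cell.

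With genes of provisional name (Gm, Rik or LOC) left out, those most like Serpinb12 over the 6 arrays were Socs2, Cyp1a1 and Clec4a3. Their root mean square differences from the centred log2 signals of Serpinb12 were 0.35, 0.38 and 0.47 (median over kept genes 1.20). Socs2, an inhibitor of cytokine and growth hormone signalling, read 106 and 183 in virgin, 736 and 587 in dorsal and 939 and 1003 in 16 dpc ventral cells, and rose over virgin (log2 2.80, adjusted p = 0.0142, limma). Cyp1a1, a target of the aryl hydrocarbon receptor, read 41.6 and 55.5, 167 and 100.1, and 393 and 145 in the same order of groups (log2 2.31, adjusted p = 0.148, limma). Clec4a3, a lectin gene of myeloid cells, read 5.13 and 16.2, 23.6 and 19.8, and 35.8 and 29.4 (log2 1.83, adjusted p = 0.415, limma). All of these signals lie below the median signals of the arrays, 60.9 to 78.6.

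Closest to Serpinb3a, with the same genes left out, were Dipk1a at 0.23, Acox3 at 0.30 and Abcg2 at 0.30 (median over kept genes 0.81). Abcg2, an efflux transporter, read 806 and 625 in virgin, 1319 and 1181 in dorsal and 2548 and 2141 in 16 dpc ventral cells (log2 1.72 over virgin, adjusted p = 0.0142, limma). Dipk1a differed by 1.42 (adjusted p = 0.0268, limma) and the peroxisomal oxidase gene Acox3 by 1.29 (adjusted p = 0.357, limma). The genes like Serpinb12 and those like Serpinb3a were all picked for their likeness to members whose values were known. Their differences from virgin cells follow in part from that choice, so they and their adjusted p-values are a description.

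**Figure D4:**
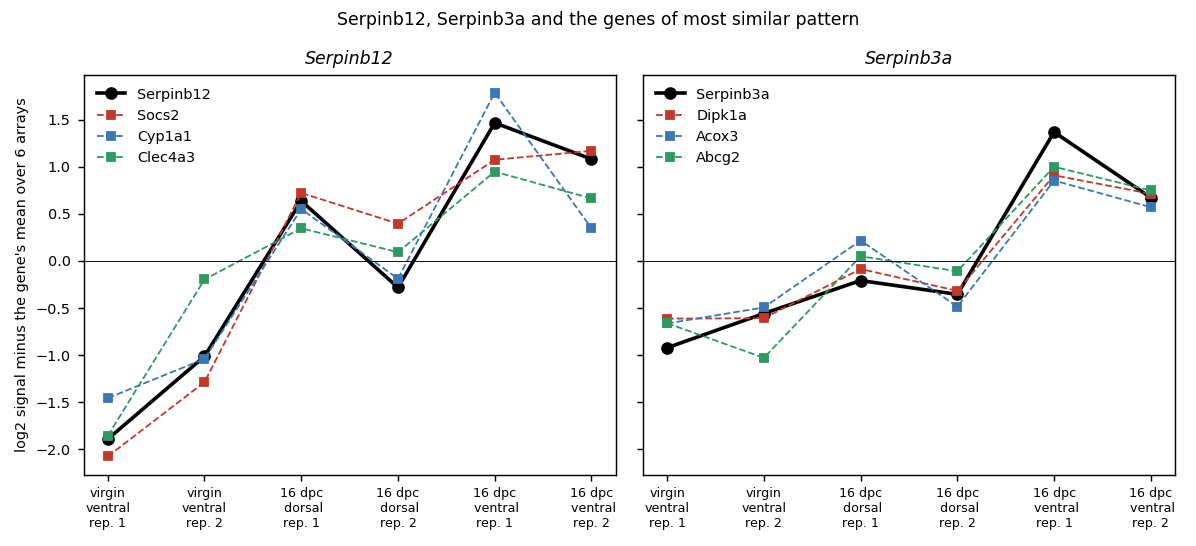
Log2 signal of Serpinb12 and Serpinb3a (black) and of the 3 genes of most similar pattern (dashed), each centred on its own mean over the 6 arrays (vertical axis: log2 signal minus that mean; horizontal axis: the arrays by group and replicate). All lines are lowest in virgin ventral and highest in 16 dpc ventral cells on average, with Serpinb12 from 71.8 to 735 units and Serpinb3a from 39.1 to 191 units.

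RNA quality differed between arrays, and by the actin ratio it moved with replicate 2 of both 16 dpc groups. The ratio of 3′ to 5′ actin signal was 4.47 in dorsal replicate 2 and 3.9 in 16 dpc ventral replicate 2, against 1.78 to 2.46 on the other 4. On those 2 arrays Serpinb12 was 219 and 563, lower than on replicate 1 of its group, and Serpinb3a was likewise lower. The same ratio for GAPDH was 2.83 and 2.86 on these arrays, but also 2.5 in virgin ventral replicate 1. It was 1.53 to 1.89 on the rest. Virgin ventral replicate 1 also had the lowest signals of Serpinb12 (71.8), Serpinb3a (39.1) and Serpinb11 (44.6). Without both 16 dpc arrays of high actin ratio, the log2 difference of 16 dpc ventral from virgin was 2.92 for Serpinb12, 2.10 for Serpinb3a and -0.66 for Serpinb8. That of 16 dpc dorsal from virgin was 2.09 for Serpinb12. The part of RNA quality was not tested. Over all arrays the median signal was 60.9 to 78.6 and the share of probe sets called present 47.1% to 53.3%.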

How the data were processed

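Same-numbered arrays of the 3 groups share a prefix in the column headers. Signals were read from 6 Affymetrix mouse arrays of 45101 probe sets, 64 of them controls. The deposited values are linear signal intensities with detection calls, made by the authors with the MAS5 method (Affymetrix Expression Console version 1 in the submitters' processing notes) and scaled to a common trimmed mean, so a change of total RNA per cell cannot be seen. The sources used here do not give the genome build of the annotation. A value table for all arrays repeats these signals to within a relative difference of 5.00e-06 and was left out. The platform annotation gives 34945 probe sets 1 gene, 932 several and 9160 none, and 34741 of the former matched RefSeq by gene number with 0 symbols changed. Promoter sequences and gene order are from RefSeq (GRCm38.p6), and 8 members had a promoter entry.

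A floor of 1 was applied before log2 values were taken. The probe set of highest mean log2 signal stood for a gene, and a gene was kept if some group had it called present on both arrays. limma 3.58.1 (lmFit, eBayes with a trend) in R 4.3.3 was fitted to all 6 arrays with 3 groups. The fit had 3 residual and 5.79 prior degrees of freedom. Tests were two-sided at 0.05 after Benjamini-Hochberg adjustment over kept genes, and the fit was tested on simulated data. Intervals are at 95% and come from the moderated fit. Arrays have no read depth, and 2 arrays per group limit the precision. Deviations of same-numbered arrays from group means correlated at 0.03 (virgin ventral with 16 dpc dorsal), 0.01 (virgin with 16 dpc ventral) and 0.45 (dorsal with 16 dpc ventral), so the replicate number was used as a block only as an alternative. The other alternatives were quantile normalization, a floor of 16, the mean of all probe sets, dropping probe sets ending in _x_at or _s_at, both detection filters, no variance trend, each further probe set, leaving out each array, and leaving out both 16 dpc arrays of high actin ratio.

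Genes named were the members, the other kept clade B serpins, list genes past the threshold or with the smallest p, and cluster neighbours. Also named were the 3 genes most like each member whose group means span at least 1 on the log2 scale, with provisional names (Gm, Rik or LOC) left out. Outside this rule, Stat3, Stat6, Stfa3, Flg, Lor, Itga6, Krt14, Krt6b, Krt8, Krt17, Krt18, Cd3e, Csn2, Csn3, Lhx2 and Sox9 are named for their role, chosen after their values were seen. Cd3g, Ptprc, Slpi, Cst6 and Timp3 are likewise named with their values known. The members and the lists were chosen with earlier results of these data known.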

Additional observations from a re-analysis of the deposited data

How the results depend on the processing

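Leaving out 1 array at a time moved the number of genes past the threshold from 22 to between 1 and 59 for 16 dpc ventral over virgin ventral, from 9 to between 0 and 7 for 16 dpc ventral over 16 dpc dorsal, and from 0 to between 0 and 33 for 16 dpc dorsal over virgin ventral (limma). In that order of comparisons, the replicate number as a block gave 86, 16 and 11 genes and changed no call of a member, and fits without both 16 dpc arrays of high actin ratio gave 115, 24 and 62. The mean of all probe sets gave 5 and 0 genes in the first and second comparison, and no variance trend gave 0 and 1. In the third, quantile normalization gave 7 genes, dropping _x_at and _s_at probe sets 1, and presence on all 6 arrays 5. Over the fold changes of members under all alternatives, 18 values moved by more than the replicate spread, and several settings (the block, the variance trend, the detection filters) cannot move a fold change. Serpinb12 in 16 dpc dorsal over virgin ventral passed only without both high-ratio arrays. Serpinb3a has 1 probe set, which ends in _x_at and was absent on 1 array, so 3 alternatives gave it no value. Leaving out an array of a group leaves 1, which is assumed to vary like the others. The causes were not tested. With 2 arrays per group, differences near the replicate spread were not detectable.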
